A study of Equus asinus with 2 samples.

Results

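The cells described here are barcodes from fetal donkey gonad and mesonephros, most of them with other leukocyte genes, that carry PTPRC (CD45, the surface phosphatase of all nucleated blood cells) but almost no mRNA of the complement C1q chains that mark tissue macrophages. They were chosen from barcodes with at least 1500 unique molecular identifiers (UMIs, which count mRNA molecules). A member had at least 2 PTPRC UMIs and at least 1 PTPRC UMI per 10000. Its summed C1QA, C1QB and C1QC stayed below 3 per 10000, and its summed EGFL7 and CDH5, both endothelial genes, below 2 per 10000. The rule found 179 members among 20086 barcodes of that depth, out of 23531 barcodes deposited. Of these members, 109 came from the 4-week library and 70 from the 8-week library.

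The series holds 2 droplet single-cell RNA libraries of Equus asinus, the donkey. The first was made from mesonephros and gonad of fetuses at 4 weeks of gestation, and the second from tissue labelled ovarian at 8 weeks of gestation. The animals carried no stated treatment or genetic change, and neither the number nor the sex of the fetuses pooled in a library is stated. Although the labels give germ cells as the cell type, both libraries hold many kinds of cell, and 1084 barcodes of the 8-week library had AMH, a Sertoli cell gene, at 10 or more per 10000 and at least 2 UMIs.

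Blood cells reach the fetal gonad through its vessels, first from yolk sac and later from liver haematopoiesis. Innate lymphoid cells and natural killer (NK) cells share the dependence of T cells on common cytokine receptors but carry no rearranged antigen receptor, and some innate lymphoid cells make IL-17 and IL-22. Neutrophil granulocytes store antimicrobial proteins in granules that form in a fixed order during maturation, and dendritic cells take up antigen and present it to T cells.

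Each stage was 1 library, so stage, tissue and library cannot be told apart and no test between stages was possible. Cells of a library are not replicates. Levels are UMIs summed over the cells of a group and scaled to 1000000 UMIs (CPM). Intervals are 95% intervals of counting error only. At 4 weeks 8092 barcodes and at 8 weeks 11994 barcodes passed the depth limit, and the deposited libraries held 122341903 and 155128130 UMIs in all. Members had a median of 10678 UMIs at 4 weeks and 12064.5 at 8 weeks. The 2 libraries shared 38 barcode sequences, of which 0 belonged to members.

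Members made up 1.35% of the 4-week barcodes (Clopper-Pearson interval 1.11 to 1.62%) and 0.584% of the 8-week barcodes (0.455 to 0.737%). Macrophage-like leukocytes with C1Q at 3 or more per 10000, selected with the same other limits, numbered 56 at 4 weeks and 263 at 8 weeks. Members outnumbered the C1Q-high leukocytes in the earlier library and were outnumbered by them in the later one.

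The values that chose the members are described here without any test. PTPRC stood at 585 CPM in 4-week members and 494 CPM in 8-week members, against 4.77 and 11.1 CPM in all other barcodes. Members with exactly 2 PTPRC UMIs, just inside the limit, numbered 15 and 19, and barcodes just outside it, with 1 PTPRC UMI and every other limit met, numbered 16 and 45. C1Q was entirely undetected in 106 of the 109 members at 4 weeks and in 54 of the 70 at 8 weeks. Between 1 and 3 per 10000 there were 1 and 11 members, and between 3 and 10 per 10000, just outside, 4 and 21 barcodes.

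The label was checked with the 18 other pan-leukocyte genes found in the files, among them CORO1A, LCP1, LAPTM5 and RAC2, which the rule did not use. A median of 11 of these genes was detected per member in either library. At least 4 were detected in 96 members at 4 weeks and in 56 at 8 weeks. The remaining 13 and 14 members had 0 to 2 of them, and 0 members had exactly 3. These members had few of the genes that leukocytes share, and lay outside the groups of lymphoid, dendritic or granulocyte genes described next.

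**Figure D1:**
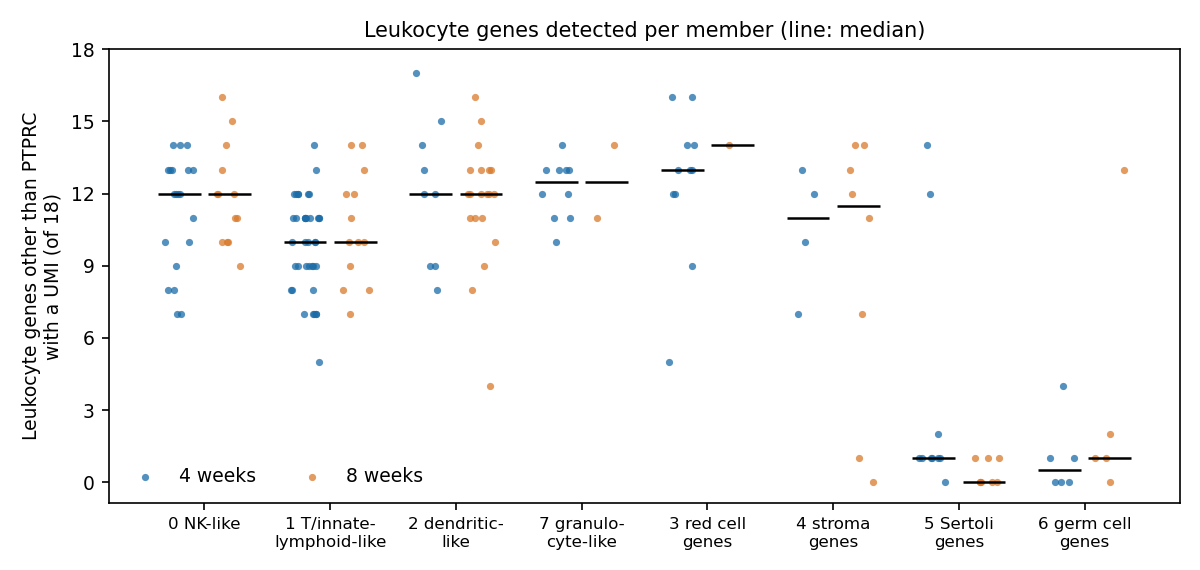
Number of leukocyte genes other than PTPRC with at least 1 UMI, out of 18 (y axis), for each member (1 point per cell, coloured by library) in the 8 subclusters (x axis), with a line at the median. Members of the lymphoid-like, dendritic-like and granulocyte-like subclusters had 4 genes or more, while most members of the subclusters led by Sertoli or germ cell genes had 0 to 2.

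Clustering the members of both libraries together gave 8 subclusters. Their genes and sizes are a description, since the same genes made the clusters. An NK-and-cytotoxic-like subcluster held 20 members at 4 weeks and 13 at 8 weeks, which is 18.3% and 18.6% of the members. A T-and-innate-lymphoid-like subcluster held 39 and 13 (35.8% and 18.6%). The dendritic-like subcluster held 9 and 20 (8.26% and 28.6%), and the granulocyte-like subcluster 10 and 2 (9.17% and 2.86%). These 4 subclusters together are called the blood cell subclusters below.

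The other 4 subclusters were led by genes of other lineages and received no cell type name. The group led by red cell genes held 11 members at 4 weeks and 1 at 8 weeks, and that led by stromal genes 4 and 8. The group led by Sertoli cell genes held 10 and 8, and that led by germ cell genes 6 and 5. In the red cell gene group the T and innate lymphoid list summed to 1708 and 2114 CPM, and the erythroid list to 420 and 66.1 CPM. The lymphoid-like counts above leave this group out. The 13 and 14 members with 0 to 2 leukocyte genes were all among the stroma, Sertoli and germ gene groups.

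**Figure D2:**
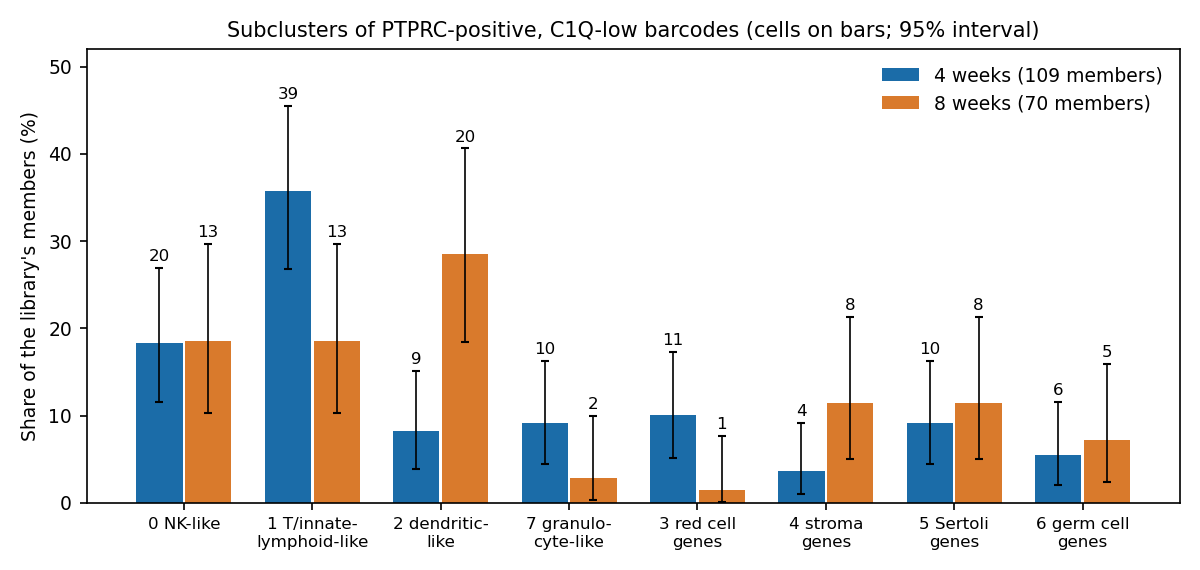
Share of each library's members in each subcluster (y axis, %), with the number of cells on each bar and the Clopper-Pearson 95% interval as error bar, for 4 weeks (109 members) and 8 weeks (70 members). The largest single subcluster was the T-and-innate-lymphoid-like one at 4 weeks and the dendritic-like one, with 20 cells, at 8 weeks. The lymphoid-like subclusters, with 13 and 13 cells at 8 weeks, together held more members than the dendritic-like one in both libraries.

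Killer cell genes marked the first subcluster at both stages. NKG7, a protein of cytotoxic granules, was at 498 CPM (interval 404 to 608) in 18 of 20 cells at 4 weeks and at 673 CPM (536 to 834) in 13 of 13 cells at 8 weeks. CD160, an activating receptor of NK cells, had UMIs in all 20 and all 13 cells, at 405 and 706 CPM. XCL1, the chemokine that attracts cross-presenting dendritic cells, was at 519 and 1119 CPM in 18 and 13 cells. KLRB1, a lectin-like receptor of NK and innate lymphoid cells, was at 534 and 1346 CPM in 16 and 12 cells. These genes were next to absent from cells with endothelial genes and no PTPRC, where NKG7 was at 0.174 and 0.131 CPM.

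Several effector genes were higher at 8 weeks inside this subcluster. Of the 15 NK and cytotoxic genes in the files, 11 had at least 30 UMIs over both stages. Of these, 6 were at least 2-fold higher at 8 weeks and 1 at least 2-fold lower, with a median log2 ratio of 1.11, beside -0.09 for all 1916 features evaluated there. In the background 8.82% of those features were at least 2-fold higher at 8 weeks and 14.0% at least 2-fold higher at 4 weeks. GZMA, a granzyme protease, went from 51.9 CPM in 3 cells to 487 CPM in 6 cells, a ratio of 9.38 (4.76 to 20.5). KLRD1, which encodes CD94, went from 98.6 CPM in 10 cells to 365 CPM in 9 cells, a ratio of 3.70 (2.12 to 6.70). CTSW, a protease of killer cells, was 3.13-fold higher (2.52 to 3.9).

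Few cells carried some of these UMIs. GNLY, which encodes granulysin, was at 5.19 CPM from 1 cell at 4 weeks and 373 CPM from only 2 cells at 8 weeks. IFNG, interferon gamma, was at 5.19 CPM from 1 cell and 89.2 CPM from 4 cells. PRF1, perforin, differed less, at 88.2 CPM in 11 cells and 162 CPM in 10 cells, with intervals of 51.4 to 141 and 99.1 to 250.5.

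EOMES, CD96 and several G2 and M phase genes were higher at 4 weeks in the same subcluster. EOMES, a transcription factor of NK cell development, was at 244 CPM in 12 cells at 4 weeks and 89.2 CPM in 7 cells at 8 weeks, a difference of 2.73-fold (1.40 to 5.85). CD96, an adhesion receptor, was 2.28-fold higher at 4 weeks (1.45 to 3.71). MKI67, a proliferation antigen, was at 306 CPM from 5 cells and 81.1 CPM from 2 cells. TOP2A, a topoisomerase of dividing cells, was at 353 CPM from 10 cells and 48.7 CPM from 2 cells. Of the G2 and M phase genes, 6 were evaluated there, 4 of them at least 2-fold higher at 4 weeks and 0 at least 2-fold higher at 8 weeks. Of the S phase genes, 1 of 6 evaluated was at least 2-fold higher at 4 weeks and 0 at 8 weeks, with a median log2 ratio of -0.08. Of 4 progenitor genes evaluated, 1 was at least 2-fold higher at each stage. Among the lymphoid transcription factors, 13 were evaluated, with 5 at least 2-fold higher at 4 weeks and 0 at 8 weeks.

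T cell receptor components were thinly represented. At least 1 of CD3E, CD3D and CD3G had a UMI in 7 members at 4 weeks and 8 at 8 weeks, and at least 2 of them in 1 and 4 members. CD3G was at 202 CPM from 5 NK-and-cytotoxic-like cells at 4 weeks and 203 CPM from 3 cells at 8 weeks. CD3E, the chain most often used to define T cells, was seen in 1 member of each library. TRAT1 and SH2D1A, adaptor genes shared by T and NK cells, had UMIs in 16 and 10 of the 20 NK-and-cytotoxic-like cells at 4 weeks and in 8 and 9 of the 13 at 8 weeks. CD3E, CD3D and CD3G all stood at 0 UMIs in the 39 and 13 cells of the T-and-innate-lymphoid-like subcluster, so the word T in its name comes from the marker list and not from a receptor complex.

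That second lymphoid subcluster carried genes of innate lymphoid cells. LTB, a lymphotoxin needed for lymphoid organ formation, had UMIs in 38 of 39 cells at 4 weeks (1067 CPM) and 13 of 13 at 8 weeks (1625 CPM). IL7R, the receptor for the survival cytokine IL-7, was at 364 CPM in 33 cells and 345 CPM in 12 cells. IL23R, the IL-23 receptor, was at 127 and 98.5 CPM, and TNFSF11, which encodes RANKL, at 213 and 183 CPM. TCF7, ID2 and ZBTB16, transcription factors of the innate lymphoid lineage, were at 208, 509 and 814 CPM at 4 weeks and at 218, 802 and 584 CPM at 8 weeks. In this subcluster 6 of the 25 T and innate lymphoid genes were at least 2-fold above the other members, among them ZAP70, CD2, CD5, IL7R and TCF7, beside 1.83% of the 20293 features with a UMI in members. Of the same list 16 genes were that far above the other members in the NK-and-cytotoxic-like subcluster, where the background was 2.13%.

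Cytokine mRNA differed by cytokine in these cells. IL17F was at 631 CPM (553 to 717) in 25 of 39 cells at 4 weeks and at 668 CPM (541 to 817) in 10 of 13 cells at 8 weeks, a ratio of 1.06 (0.83 to 1.35). IL22, a cytokine that acts on epithelia, was at 5.39 CPM from 2 cells at 4 weeks and 225 CPM from 4 cells at 8 weeks, a ratio of 41.8 (10.7 to 360). CCL20, the ligand of CCR6, had 0 UMIs at 4 weeks and 218 CPM from 4 cells at 8 weeks, at least 27.0-fold higher against a floor of 3 counts. The IL22 and CCL20 values at 8 weeks rest on 4 cells each. IL17A had UMIs in only 3 and 2 cells, and IL13, a cytokine of the GATA3-dependent group, in 1 and 0. In the NK-and-cytotoxic-like subcluster IL17F had 0 UMIs at 4 weeks and 341 CPM from 2 cells at 8 weeks.

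KIT and IKZF1 were lower at 8 weeks in the T-and-innate-lymphoid-like cells. KIT, the stem cell factor receptor, was at 421 CPM in 33 cells at 4 weeks and 119.6 CPM in 9 cells at 8 weeks, 3.52-fold lower (2.13 to 6.19). IKZF1, the transcription factor Ikaros, was 3.43-fold lower (2.27 to 5.42). NCR3, an activating receptor, went the other way, at 148 and 281 CPM, 1.90-fold higher at 8 weeks (1.23 to 2.90). Of the 3015 features evaluated in this subcluster, 8.29% were at least 2-fold higher at 8 weeks and 16.1% at least 2-fold higher at 4 weeks. The lymphoid transcription factors had 3 of 13 evaluated at least 2-fold higher at 4 weeks and 0 at 8 weeks, with a median log2 ratio of -0.28.

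**Figure D3:**
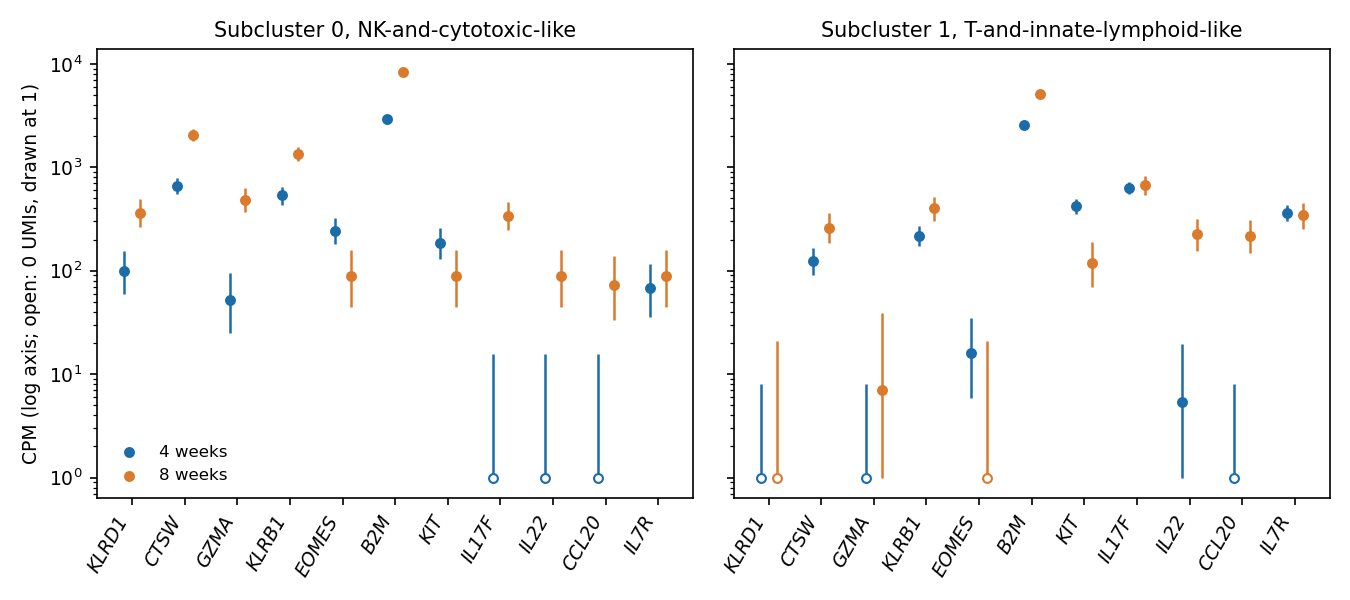
Level of NK and innate lymphoid genes and of B2M (y axis, CPM on a log axis, with exact Poisson 95% intervals) at 4 and 8 weeks in the NK-and-cytotoxic-like and T-and-innate-lymphoid-like subclusters. Open points mark 0 UMIs, drawn at 1, with bars up to the limit that a count of 0 allows (3 counts). GZMA, KLRD1 and B2M were higher at 8 weeks in the first, and KIT lower in the second, where IL17F overlapped between stages.

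Antigen presentation genes were higher at 8 weeks across lymphoid-like and dendritic-like members. Over all members 9 of the 14 listed genes were evaluated, of which 7 were at least 2-fold higher at 8 weeks and 0 at least 2-fold lower. Their median log2 ratio was 1.32, beside -0.10 for all 8913 features, of which 7.6% were at least 2-fold higher at 8 weeks and 9.37% at least 2-fold higher at 4 weeks. B2M, the light chain of class I molecules, was 2.85-fold higher in the NK-and-cytotoxic-like cells, 2.01-fold in the T-and-innate-lymphoid-like cells and 3.02-fold in the dendritic-like cells. PSMB8, an immunoproteasome subunit, was 2.53-fold and 2.50-fold higher in the 2 lymphoid-like subclusters. PSMB9, another such subunit, was 3.46-fold and 2.91-fold higher there.

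The same direction was present outside the members. In cells with endothelial genes and no PTPRC, B2M was at 1238 CPM at 4 weeks and 3633 CPM at 8 weeks, and in C1Q-high leukocytes at 1879.6 and 4149 CPM. PSMB8 in the endothelial-gated cells was at 45.0 and 92.1 CPM. Whether the difference belongs to the stage, the tissue piece or the library cannot be told apart.

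B lineage genes were rare. PAX5, which fixes B cell identity, and DNTT, which diversifies antigen receptors, had 0 UMIs in every member, and RAG1, a recombinase of antigen receptor genes, had UMIs in 0 and 1 members. MS4A1, which encodes CD20, had UMIs in 3 and 4 members, at 3.13 and 13.4 CPM. CD79A, a chain of the B cell receptor, had UMIs in 6 and 2 members, at 5.47 and 2.23 CPM. CD22, a lectin of B cells, was found in 16 and 3 T-and-innate-lymphoid-like cells. BLK, a kinase named for B cells, had UMIs in 24 and 8 cells of the same subcluster at 159 and 113 CPM.

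Genes of blood progenitors were found without the defining surface marker. CD34 had UMIs in 3 members of each library, at 2.35 and 3.35 CPM, against 199 and 281 CPM in endothelial-gated cells, which carry it too. HLF, a transcription factor of stem cells, had UMIs in 7 and 1 members. CD34 or HLF was present in 10 and 4 members, and 0 members had both. GATA2, another stem cell factor, had UMIs in 4 and 1 members, at 5.47 and 1.12 CPM against 45.5 and 49.3 CPM in endothelial-gated cells.

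KIT had UMIs in 67 of 109 members at 4 weeks (259.6 CPM) and in 26 of 70 at 8 weeks (92.6 CPM). After each cell was reduced to 1500 UMIs, 24.8% of members had KIT at 4 weeks (17% to 34%), beside 4.93% of endothelial-gated cells. At 8 weeks the shares were 8.57% (3.21 to 17.7%) and 8.80%, so the share over all members was like that of endothelial-gated cells. Before thinning KIT was still found in most T-and-innate-lymphoid-like cells at 8 weeks, as given above. Whether KIT in the endothelial-gated cells was free RNA was not tested. KIT coincided with MYB in 31 members at 4 weeks and 11 at 8 weeks, and with CD34 in 3 and 1. KIT is also a gene of germ cells, and all 6 and 5 members of the germ gene subcluster carried it.

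MYB, a transcription factor of dividing blood precursors, had UMIs in 41 and 16 members, at 75.9 and 29.0 CPM against 3.73 and 1.70 CPM in endothelial-gated cells. RUNX1, which blood cells of many kinds need, had UMIs in 93 and 52 members, at 589 and 300.2 CPM against 20.4 and 37.1 CPM. Of the 20 progenitor genes, 8 were evaluated between stages over all members. At 8 weeks 2 were at least 2-fold higher and 3 at least 2-fold lower, with a median log2 ratio of -0.82 beside -0.10 for all features.

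Dendritic cell genes were concentrated in the third blood cell subcluster. CST3, the protease inhibitor cystatin C, was at 8563 CPM in 9 of 9 cells at 4 weeks and 33708 CPM in 20 of 20 cells at 8 weeks. CD74, the chaperone of class II molecules, was at 917 CPM in 8 cells and 2345 CPM in 20 cells. FLT3, the growth factor receptor of dendritic cell precursors, was at 71.2 CPM in 4 cells and 95.5 CPM in 11 cells. IRF8, a transcription factor required by several dendritic lineages, was at 320.5 CPM in 4 cells and 256 CPM in 15 cells. Of the 13 dendritic genes in the files, 8 were at least 2-fold above the other members in this subcluster, beside 2.94% of the 20293 features with a UMI in members. So were 7 of the 18 monocyte genes.

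Its cells differed among themselves, and its name comes from the cells of both libraries together. At 4 weeks the dendritic list summed to 1487 CPM there, below the monocyte list at 2234 CPM and the progenitor list at 1878 CPM. At 8 weeks the same lists summed to 3240, 3248 and 921 CPM. The monocyte sum at 8 weeks was raised by 1 cell of 4078 UMIs. That cell had the monocyte list at 554 per 10000 and the granulocyte list at 132 per 10000. The next highest of the 20 cells had the monocyte list at 62.6 per 10000. The near equality of the dendritic and monocyte sums at 8 weeks rests on that 1 cell. The dendritic-like shares of the 2 libraries thus count cells with unlike genes. CLEC9A, a receptor for dead cells on cross-presenting dendritic cells, had UMIs in 0 of 9 cells at 4 weeks and 6 of 20 at 8 weeks, and XCR1, the receptor of XCL1, in 0 and 3. All 6 CLEC9A cells also had CPVL, a carboxypeptidase. BATF3, a transcription factor of the same lineage, had UMIs in 1 and 9 cells. JCHAIN together with TCF4, a pair found in plasmacytoid dendritic cells, occurred in 2 and 4 cells. CD14, a lipopolysaccharide co-receptor of monocytes, occurred in 2 and 8 cells, of which 0 and 1 also had CLEC9A. None of these 3 patterns was found in 5 and 3 cells.

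At 4 weeks the count of 0 for CLEC9A allows up to 26.7 CPM (3 counts) in 9 cells, and at 8 weeks its exact interval ran from 26.9 to 91.0 CPM. CD83, a maturation antigen, was at 17.8 CPM from 2 cells at 4 weeks and 621 CPM from 14 cells at 8 weeks. The 1762 features evaluated in the subcluster had 13.4% at least 2-fold higher at 8 weeks and 16.1% at least 2-fold higher at 4 weeks. C1Q between 1 and 3 per 10000 was found in 9 of the 20 cells at 8 weeks. Of the 26 macrophage genes, 10 were at least 2-fold above the other members, of which C1QA and C1QB were used by the rule. Without genes of the rule this was 8 of 19 with a UMI in members, beside 2.94% of the 20293 features. In this subcluster at 8 weeks MRC1 and LYVE1, macrophage scavenger receptors, were at 34.7 and 30.4 CPM, against 293 and 831 CPM in the C1Q-high leukocytes. Stromal genes also differed in this subcluster, where 4 of 4 evaluated were at least 2-fold higher at 8 weeks. The part of free RNA in these values was not tested.

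With the clustering used here 0 subclusters were named from monocyte genes, although the 4-week library clustered alone gave such a group of 9 members. Of the 18 monocyte genes, 10 were at least 2-fold above the other members in the granulocyte-like subcluster, where 7.87% of features were. CSF1R, the receptor for the macrophage growth factor, had UMIs in 3 and 5 members, at 3.91 and 15.6 CPM, against 714 and 578 CPM in C1Q-high leukocytes and 3.94 and 25.8 CPM in endothelial-gated cells. The member level of CSF1R thus lay at or below that of cells that should lack it, except in the dendritic-like subcluster, where it was at 44.5 and 52.1 CPM from 3 and 4 cells. CD14 had UMIs in 12 members at 4 weeks and 11 at 8 weeks, nearly all of them granulocyte-like (9 and 1) or dendritic-like (2 and 8). CCR2, a chemokine receptor of monocytes, had UMIs in 4 and 9 dendritic-like cells. S100A8 and CSF1R never occurred in the same member.

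Granule protein genes of neutrophils marked the granulocyte-like subcluster. There S100A8, S100A9 and S100A12, calcium-binding alarmins, were at 17353, 22836 and 30867 CPM in the 10 cells at 4 weeks. The 2 cells at 8 weeks had 20944, 26408 and 33563 CPM. RETN, resistin, was at 10335 and 18603 CPM, and LYZ, lysozyme, at 12439 and 13659 CPM. All of these genes had UMIs in 10 of 10 and 2 of 2 cells. S100A8 was at 0.174 and 0.262 CPM in endothelial-gated cells.

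The granule genes of this subcluster spanned several maturation steps. LTF, lactoferrin of the secondary granules, was at 3486 CPM in 10 of 10 cells and 3512 CPM in 2 of 2. LCN2 and BPI, an iron-withholding and an endotoxin-binding protein, were at 2779.6 and 2288 CPM at 4 weeks. ELANE, the elastase of primary granules, was at 415 CPM in 5 cells and 390.3 CPM in 1 cell. MPO, myeloperoxidase of the same granules, had 0 UMIs in the 10 and 2 cells, and so had AZU1, azurocidin, in all members. CEBPE, a transcription factor of granulocyte maturation, had UMIs in 5 and 1 cells. At 4 weeks MKI67 had UMIs in 4 and TOP2A in 5 of the 10 cells, whereas both were at 0 in the 2 cells at 8 weeks, where a count of 0 allows up to 390.3 CPM (3 counts). Of the 17 granulocyte genes 14 were at least 2-fold above the other members, beside the same background of 7.87% over the features with a UMI in members. So were 5 of 17 megakaryocyte genes and 4 of 26 macrophage genes.

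Over all members S100A8 was 4.69-fold higher at 4 weeks (3.98 to 5.54), at 884 CPM against 189 CPM. Within the granulocyte-like cells alone the 2 stages overlapped in S100A12, whose intervals ran from 29532 to 32247 and from 29592 to 37918 CPM. That overlap is stated for S100A12 only, since RETN, given above, was higher in the 2 cells at 8 weeks. This subcluster held 10 and 2 cells, and the part of that in the difference over all members was not tested. Eosinophil, basophil and mast cell genes summed to only 3.13 and 7.81 CPM over the members, below the 7.07 and 14.0 CPM of endothelial-gated cells.

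**Figure D4:**
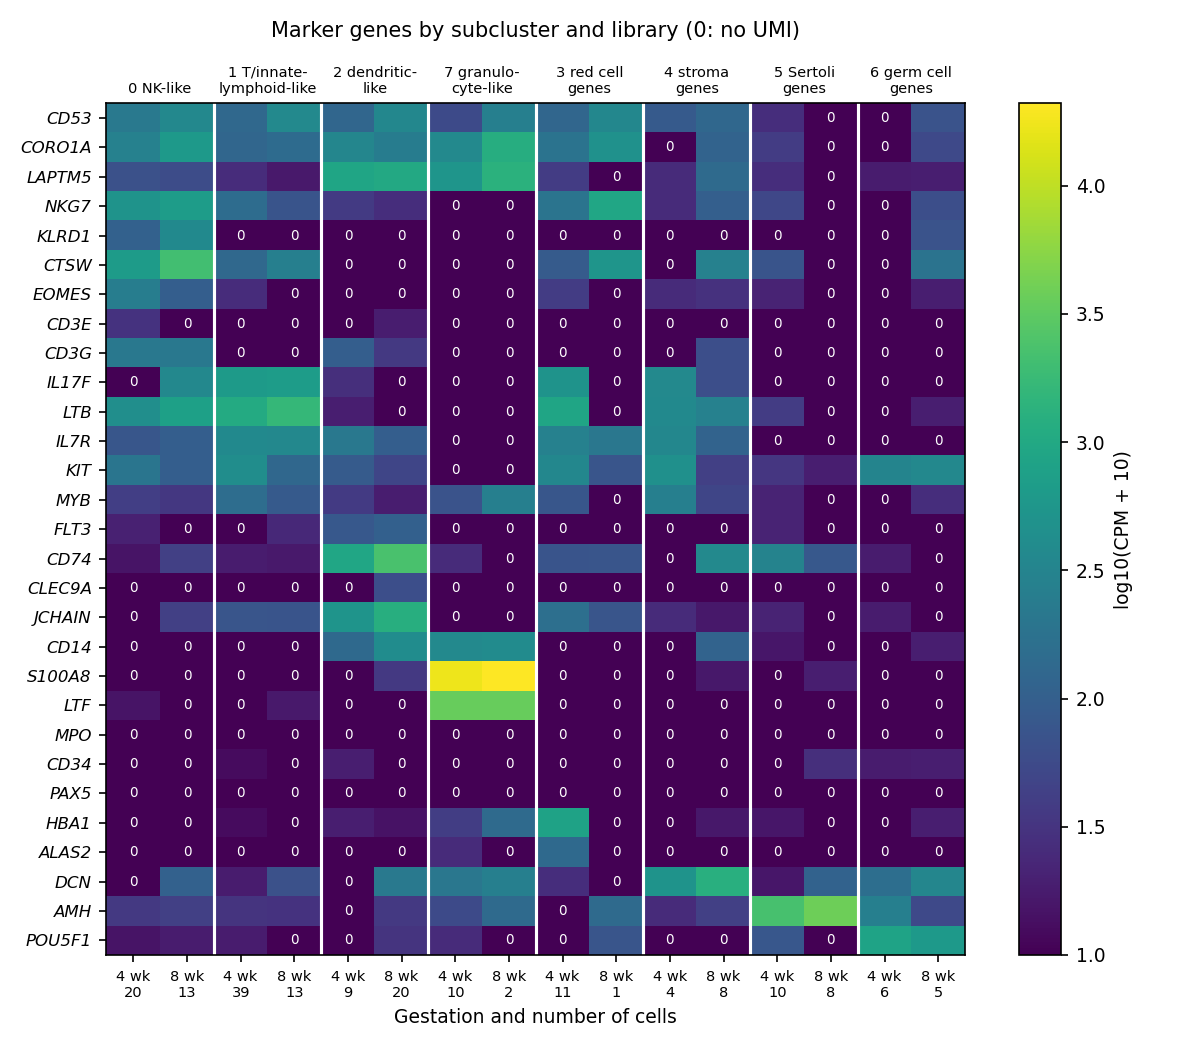
Marker genes (y axis) in the 8 subclusters at 4 and 8 weeks (x axis, with the number of cells), coloured by log10(CPM + 10), with 0 written where no UMI was found. S100A8 and LTF were highest in the granulocyte-like columns, CD74 and JCHAIN in the dendritic-like ones, and IL17F and LTB in the T-and-innate-lymphoid-like ones, while MPO and PAX5 were at 0 throughout.

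The subcluster led by red cell genes combined erythroid and lymphoid mRNA. HBA1, an alpha globin, was at 817 CPM from 5 of its 11 cells at 4 weeks, and ALAS2, which starts haem synthesis in red cells, at 125 CPM from 3 cells. LTB had UMIs in 10 of the 11 cells (879.8 CPM) and IL17F in 5. MKI67 had UMIs in 10 of the 11 cells, and the G2 and M phase genes together reached 7441 CPM, against 1121 to 2517 CPM in the lymphoid-like and dendritic-like cells and 5682 CPM in the granulocyte-like cells at 4 weeks. LTB and MKI67 were thus found in more of these cells than HBA1. The feature that led this subcluster, LOC106830211, has a locus identifier only. It was at 31654 CPM over the cells of both libraries, against 156 CPM in the other members. Its spread over the cells was not examined.

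Members led by stromal genes mixed leukocyte and stromal mRNA. DCN, a proteoglycan of connective tissue, was at 506 and 1237 CPM, and LTB was found in 4 of 4 cells at 4 weeks and 3 of 8 at 8 weeks. Their doublet scores had medians at the 99 and 94 percentiles of their libraries, where those of the NK-and-cytotoxic-like cells were at 74 and 71, of the dendritic-like cells at 93 and 72, of the granulocyte-like cells at 93 and 55 and of the red cell gene group at 84 and 85. The doublet caller marked 0 barcodes in either library and so has not worked, and its calls and scores cannot decide the question. Whether pairs of cells in 1 droplet gave these barcodes was not tested.

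Members led by Sertoli or germ cell genes mostly had PTPRC with few other leukocyte genes. In the Sertoli gene group AMH was at 2238 and 3832 CPM in all 10 and 8 cells. In the germ gene group POU5F1, a pluripotency factor of primordial germ cells, was at 847 and 594 CPM in all 6 and 5 cells. The 18 other pan-leukocyte genes summed to 704 and 45.3 CPM in the Sertoli gene group and 81.4 and 586 CPM in the germ gene group, against 4193 and 5482 CPM in the NK-and-cytotoxic-like cells. PTPRC was less unequal, at 231 and 181 CPM in the Sertoli gene group and 432 and 279.7 CPM in the germ gene group.

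Across the whole libraries such barcodes were rare. Of 645 barcodes with POU5F1 at 4 weeks, 19 had at least 2 PTPRC UMIs, and of 761 at 8 weeks, 16 did. One 4-week germ gene barcode reached 22 PTPRC UMIs. The doublet scores of the Sertoli and germ gene groups had medians at the 23 to 57 percentiles, but they come from the caller that has not worked. Why PTPRC occurred in these barcodes was not tested.

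The macrophage-like leukocytes with C1Q are the population most like the members. Of 7836 features evaluated in both libraries, 7.94% were at least 2-fold higher in members in both and 7.06% at least 2-fold lower in both. The C1Q limit separated these 2 groups, so their differences are given as a description, and macrophage genes that go with C1Q had to be lower in members. PTPRC, the 3 C1Q genes, EGFL7 and CDH5 were left out of the counts. A gene found in members alone could be evaluated only where it was high in them, so the counts over evaluated genes are a description. Over all features evaluated in 1 library, 18.8% at 4 weeks and 10.3% at 8 weeks were at least 2-fold higher in members, and 12.4% and 9.77% at least 2-fold lower. Of the T and innate lymphoid genes, 14 of 16 evaluated at 4 weeks and 14 of 14 at 8 weeks were at least 2-fold higher in members, with median log2 ratios of 5.27 and 3.78 beside 0.20 and 0.13 for all features. Of the NK and cytotoxic genes, 8 of 8 and 10 of 11 were, with medians of 6.29 and 5.25.

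Among the genes with the highest ratios were STAT4, a signal transducer of interleukin 12, and ZBTB16, the zinc finger factor of innate lymphocytes. STAT4 was at 348 against 5.95 CPM at 4 weeks, a ratio of 58.5 (19.9 to 285), and at 167 against 3.52 CPM at 8 weeks, a ratio of 47.5 (23.5 to 112). ZBTB16 was at 477 against 3.97 CPM and at 163 against 5.28 CPM. NKG7 was at 149 against 0 CPM at 4 weeks, at least 25.1-fold higher, and 54.9-fold higher at 8 weeks (24.6 to 152). LTB was at 519 against 0 CPM, at least 87.3-fold higher, and at 409.5 against 0.44 CPM. S100A9 was at 1164 and 262 CPM against 0 in both libraries, at least 196-fold and 199-fold higher. KLRB1, XCL1, CTSW, IL17F, LYZ, RETN, S100A8 and S100A12 were in the same set of 15, with NALF1 and SYTL2.

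The genes lowest in members were those of resident macrophages. LYVE1 was at 0 against 851 CPM at 4 weeks, at least 363-fold lower, and at 8.93 against 831 CPM at 8 weeks. CCL4, an inflammatory chemokine, was at 43.8 against 2999.9 CPM and at 143 against 9565 CPM, 68.5-fold and 67.0-fold lower. TLR4, the lipopolysaccharide receptor, was 37.5-fold and 46.9-fold lower, and CSF1R 183-fold and 37.0-fold lower. DAB2, GPR34, STAB1, MRC1, CX3CR1, TMEM176A and TMEM176B were among the 15 lowest too. Of the macrophage list 16 of 17 evaluated genes at 4 weeks and 18 of 19 at 8 weeks were at least 2-fold lower, and 0 higher.

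Signalling genes divided along the same line. Among Fc receptor and ITAM signalling genes, which couple antibody and lectin receptors to kinases, 8 of 11 were at least 2-fold lower in members at 4 weeks and 8 of 12 at 8 weeks. Of the lymphoid transcription factors 16 of 19 and 12 of 15 were at least 2-fold higher and 0 at least 2-fold lower in either library. Antigen presentation genes were lower in members, 6 of 10 and 6 of 12 by at least 2-fold, and 0 were higher by that much.

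**Figure D5:**
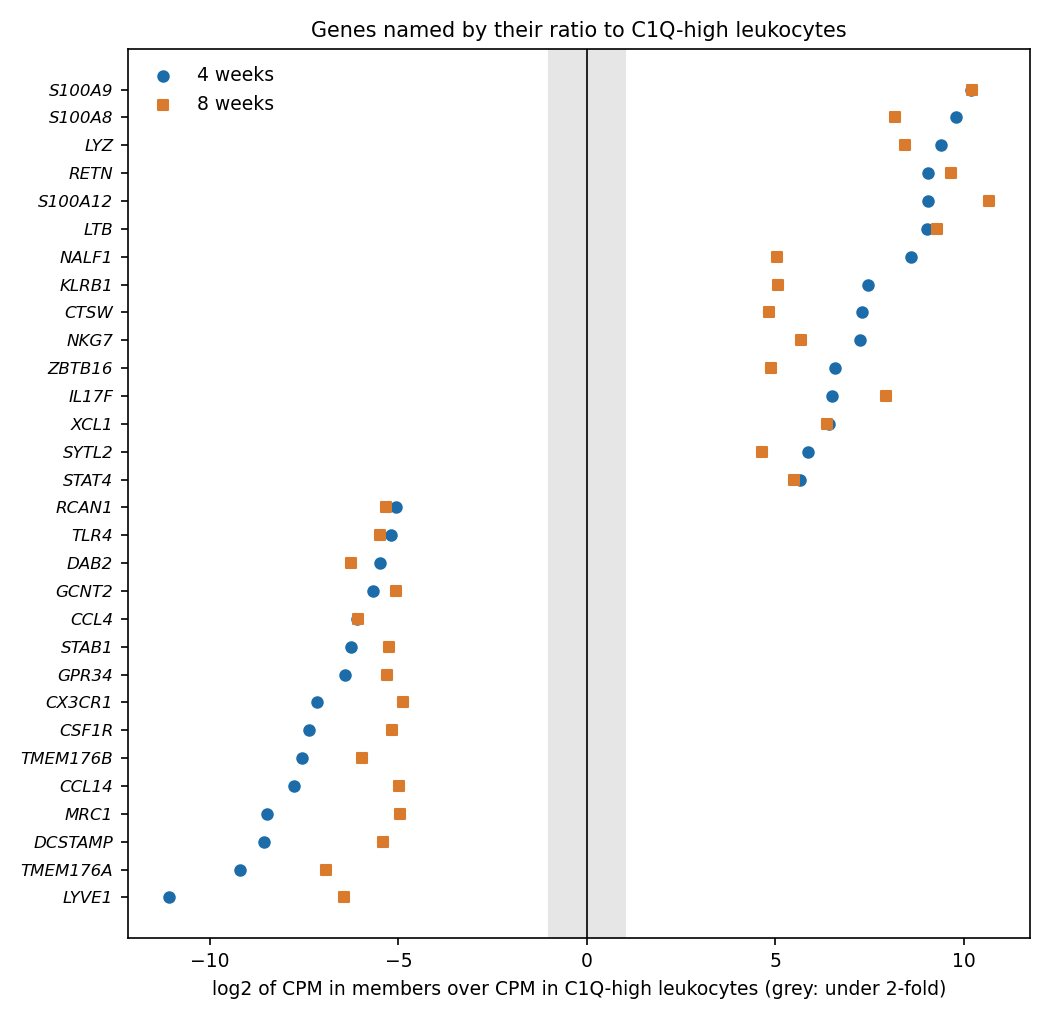
Log2 ratio of CPM in members over CPM in C1Q-high leukocytes (x axis) for the 15 highest and 15 lowest named genes (y axis), at 4 and 8 weeks, with the band under 2-fold in grey. Granule and lymphoid genes lay on the positive side in both libraries, macrophage receptors such as LYVE1 and CSF1R on the negative side.

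Over all members the genes with the largest stage ratios included genes of connective tissue and of subclusters that differed in size. Higher at 8 weeks were ACTA2, a smooth muscle actin, at 1.56 and 138 CPM, a ratio of 88.5 (24 to 739), COL1A1, a collagen chain, at 34.4 and 278 CPM, and MGP, a matrix protein, at 7.04 and 106 CPM. All 6 evaluated stromal genes were at least 2-fold higher at 8 weeks, with a median log2 ratio of 2.65. The summed stromal list also differed in C1Q-high leukocytes (151 and 1145 CPM) and in endothelial-gated cells (370.1 and 1730.2 CPM). The part of this in the members' values was not tested. CST3 and IL18BP, an inhibitor of interleukin 18, were 7.58-fold and 9.10-fold higher over all members.

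Lower at 8 weeks were genes of granulocytes, histones and some genes that also differed outside the members. LTF, BPI, S100A8, S100A9 and S100A12 were 4.43-fold to 5.71-fold lower. H1-2, a linker histone, was at 292 and 41.3 CPM and H1-5 at 152.5 and 26.8 CPM. S100G, a calcium-binding protein, was at 148 CPM in 79 members at 4 weeks and 1.12 CPM from 1 UMI at 8 weeks, in C1Q-high leukocytes at 256 and 0.44 CPM and in endothelial-gated cells at 306 and 0.262 CPM. RPL37A, a ribosomal protein gene, was 4.27-fold lower in members (3.94 to 4.63), with 1858 and 534 CPM in C1Q-high leukocytes and 2576 and 587 CPM in endothelial-gated cells.

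With the blood cell subclusters alone, 5930 features were evaluated, of which 6.36% were at least 2-fold higher at 8 weeks and 14.0% at least 2-fold higher at 4 weeks. Antigen presentation genes were at least 2-fold higher at 8 weeks in 8 of 9 evaluated there, with a median log2 ratio of 1.48 beside -0.22 for all features. G2 and M phase genes were at least 2-fold higher at 4 weeks in 9 of 14 and at 8 weeks in 0, with a median of -1.20. Over all members 4 of 18 were, and in the T-and-innate-lymphoid-like cells 0 of 3, where the list summed to 1121 and 1843 CPM. The granulocyte-like cells, 10 and 2 in number, had the list at 5682 and 1041 CPM, and their part in this was not tested. The red cell gene group, 11 and 1 cells of which most had lymphoid mRNA, lies outside these subclusters. Its G2 and M phase sum at 4 weeks was above that of each of them, so dividing cells with lymphoid genes are left out here. The part of that in the T-and-innate-lymphoid-like values was not tested. Lymphoid transcription factors were at least 2-fold higher at 4 weeks in 9 of 18 and at 8 weeks in 0, with a median of -0.91.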

How the data were processed

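UMIs were measured per gene and cell barcode in 2 droplet single-cell RNA libraries, 1 per stage. The deposited values are whole-number counts, not normalized. Per the file headers the authors made them with Cell Ranger 7.1.0, whereas the submitters' processing notes name version 2.1.1. A DNBelab C series kit was used per the labels' protocols. For genome build and annotation: not given in the sources used here. A RefSeq gene table of the assembly EquAss-T2T_v2 named 768 of 21981 features deposited with a locus identifier only. The counts hold 0 mitochondrial features.

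From these counts, barcodes with 1500 UMIs were kept, and members were selected as the opening describes. C1Q-high leukocytes met the same PTPRC and endothelial limits with C1Q at 3 or more per 10000. Endothelial-gated cells had EGFL7 and CDH5 at 2 or more and no PTPRC. Ratios were computed for genes with at least 30 UMIs over the 2 groups, with 0.5 UMI added on the log2 scale, exact Poisson intervals for CPM and exact conditional binomial intervals for ratios. A gene was counted at 2-fold or more. For levels at 0 a floor of 3 counts per group was used. Shares were taken after thinning to 1500 UMIs, with Clopper-Pearson intervals. No member was removed as a doublet: Scrublet in scanpy, with 6% expected, called 0 of 8092 and 0 of 11994 barcodes and so has not worked.

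Members were clustered with scanpy 1.11.5 (1000 variable genes, 20 principal components, 15 neighbours, Leiden resolution 0.8, seed 1). Haemoglobin genes were left out by symbol, so features with a locus identifier only were not screened for them. A subcluster was named from the marker class with at least 3 markers and 20% of its markers 2-fold over other members with 10 CPM added. Classes of non-leukocytes gave no name. Named genes were the 15 highest and 15 lowest against C1Q-high leukocytes, at 100 CPM or more in the higher group and 2-fold the same way in both libraries, and the 12 highest and 12 lowest between stages, with UMIs in at least 10 members. Others came from 31 gene lists and 3 lists added after values were seen. IL17F, IL22, CCL20, IL23R, TNFSF11, CPVL, JCHAIN, TCF4, RETN and AZU1 were among the genes chosen after their values were seen. Members and lists were chosen with earlier results of these data known. With 1 library per stage no p-value is given. Python 3.11.15, numpy 2.4.6, scipy 1.17.1, pandas 2.3.3 and matplotlib 3.10.9 were used, and the scripts were tested on simulated data. Alternatives covered depth, the PTPRC and C1Q limits, the minimum per gene, equal weight per cell, deep members, shared barcodes, clustering and thinning.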

Additional observations from a re-analysis of the deposited data

Results flagged for a closer look

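A pair of genes went opposite ways between groups under the same contrast, with counting intervals on either side of equal. The difference between the groups was not tested in either case, since each library or subcluster within a stage is a single sample.

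CXCL8, a chemokine that attracts neutrophils, was lower in members than in C1Q-high leukocytes at 4 weeks, at 112 against 365 CPM, a log2 ratio of -1.70. At 8 weeks it was higher in members, at 127 against 10.1 CPM, a log2 ratio of 3.63. Its UMIs in members came from 12 cells at 4 weeks and 8 at 8 weeks, mainly granulocyte-like (7 and 1) and dendritic-like (2 and 5) cells. In the C1Q-high leukocytes they came from 11 and 3 cells.

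ADAM12, a membrane metalloprotease, was higher at 8 weeks in the NK-and-cytotoxic-like cells, with a log2 ratio of 1.82. In the T-and-innate-lymphoid-like cells it was lower at 8 weeks, at 1402 and 274 CPM in 37 and 10 cells, with a log2 ratio of -2.34.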

How the results depend on the processing

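No paired analysis was possible because each stage is 1 library, whose replicate number 1 was given in accession order, and no replicate block can be fitted. Values for single genes were held to their counting interval, and list medians to a fixed log2 distance from the main value. Of these values, 694 kept within that limit, 62 moved beyond it and 0 reversed. Of the member shares, gene counts and subcluster shares, 54 kept and 20 moved, where gene counts were held to a fixed fold and shares to their counting interval. The 694 and the 54 both include values of the setting without shared barcodes, which removed 0 members and could change nothing. With PTPRC at 3 UMIs or more the 8-week member share was 0.425%. Without the 4 subclusters led by red cell, stroma, Sertoli or germ cell genes (a setting added once the data had been seen, so chosen after seeing the data) the member shares were 0.964% and 0.40%, 377 genes were at least 2-fold higher at 8 weeks instead of 677, and 394 genes were at least 2-fold higher in members than in C1Q-high leukocytes instead of 622. With no minimum but 1 UMI per group, 2207 genes were at least 2-fold higher at 8 weeks, 1735 at 4 weeks (835 with the minimum), and 937 higher in members than in C1Q-high leukocytes, because genes with few UMIs enter. A single gene's ratio does not use that minimum.

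Subcluster shares depended on the clustering. At resolution 0.4 lymphoid-like members were 19.3% and 20%, granulocyte-like 17.4% and 31.4%, dendritic-like 0% and 0%, and members in red cell, stroma, Sertoli or germ gene subclusters 63.3% and 48.6%, because groups merged. With each library clustered alone, granulocyte-like members were 23.9% and 0%, dendritic-like ones 0% at 4 weeks, where 9 members formed a group named from monocyte markers, and those of the red cell, stroma, Sertoli or germ gene subclusters 14.7% at 4 weeks. At resolution 1.2 the T-and-innate-lymphoid-like cells split by library, into 37 and 0 and into 1 and 13 cells. Leaving out barcodes shared by both libraries removed 0 members, so it could move none of its 92 values. Lowering the depth limit to 1000 UMIs moved 0 of 92 values, and 3000 UMIs moved 3. Dropping members over 3 times the median UMIs moved 4, PTPRC at 3 UMIs 9, C1Q below 1 per 10000 moved 11 and equal weight per cell 15. Without thinning, 8 of 12 shares moved, and members with KIT were 61.5% and 37.1%. Members per subcluster, down to 1 or 2 cells, limit every stage value within a subcluster.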
